A study of Caenorhabditis elegans with 2 samples.

Results

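The srh and sri genes are numbered families of predicted chemoreceptor genes of the nematode Caenorhabditis elegans. They were taken here as the protein-coding genes of the Ensembl annotation of WBcel235 whose symbol is srh- or sri- followed by a digit. This rule gave 281 genes, 220 srh and 61 sri, of 19973 protein-coding genes. The measurements are ChIP-seq peak lists, from sequencing of DNA precipitated with chromatin, for SNU-23, a worm protein of the splicing machinery. The 2 libraries are biological replicates of 1 group, whole hermaphrodite L1 larvae of strain OP528, taken 6 hours after synchronisation by bleaching and starvation. The strain carries wgIs528, a transgene with snu-23 tagged with TY1, EGFP and 3xFLAG on a fosmid clone and unc-119(+) as marker, in an unc-119 (tm4063) background, and an antibody against GFP was used. The tagged copy was therefore present on a transgene in all animals of both replicates, and each library pools whole animals of that 1 strain. There was no second strain, stage or condition, so every comparison below sets srh and sri genes beside other genes in the same lists.

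Chemoreceptor genes of C. elegans encode G protein-coupled receptors that are used mostly in ciliated sensory neurons of the head and tail. A given receptor is typically made in a small number of neurons, where ligand binding acts through G proteins, cyclic GMP and cation channels. The families have expanded by local duplication, and most members lie in tandem clusters on chromosome V. SNU-23 takes its name from yeast Snu23, a zinc finger protein of the tri-snRNP, a particle that joins the spliceosome before the first splicing step, and ChIP of it reports nearness to DNA rather than direct contact. In whole animals, signal in a few cells and weak signal in many cells cannot be told apart.

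Each peak list gives, per peak, a position, a summit and the authors' signal value relative to a control. A list of 30000 candidates was deposited for each replicate and for the replicates pooled, and these candidates include background peaks. The final list held 6675 peaks kept at a threshold on the irreproducible discovery rate (IDR), and these were the strongest pooled candidates without exception. Its lowest signal was 71.7 and its median 158. Here a gene has a peak or a candidate when a summit falls inside the gene or no more than 500 bp from the annotated 5' end, and a gene with a summit of the final list is called marked. A peak is shared when the same summit reaches another annotated gene of any biotype by the same rule. Offsets are in bp from the annotated 5' end, negative upstream. Signals are comparable only within a list, and ranks run from 1 for the strongest. Depth is unknown because the lists hold no read counts, and no counting error can be given. The tagged gene itself, snu-23 on chromosome III, had a final summit at -71 bp with a pooled signal of 119, and 55.4 in replicate 1 and 62.1 in replicate 2.

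The sequence at summits of 3 marked members is shown because their surroundings differ: a gap to a divergent gene at srh-2, a tRNA gene at srh-269 and no other gene at srh-170. Sequences were read from the RefSeq genome of WBcel235, which is the build ce11 of the lists. For srh-2 it is the part of the icl-1 to srh-2 gap that ends at the non-coding RNA gene C05E4.16, chrV:728005-728230, plus strand. The stretches upstream of srh-269, chrV:16592237-16592380, and of srh-170, chrV:15389123-15389243, are on the minus strand. Capitals mark the 21 bases centred on the pooled summit, except that at srh-269 they mark the 72 bases of the tRNA gene WBGene00014499. No sequence is shown for sri-5 and srh-16.

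icl-1/srh-2 gap: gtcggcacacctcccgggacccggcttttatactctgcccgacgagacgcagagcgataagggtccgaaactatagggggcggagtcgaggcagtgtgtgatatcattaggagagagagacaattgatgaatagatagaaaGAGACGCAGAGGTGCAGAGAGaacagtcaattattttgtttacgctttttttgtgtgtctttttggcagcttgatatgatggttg
srh-269 upstream: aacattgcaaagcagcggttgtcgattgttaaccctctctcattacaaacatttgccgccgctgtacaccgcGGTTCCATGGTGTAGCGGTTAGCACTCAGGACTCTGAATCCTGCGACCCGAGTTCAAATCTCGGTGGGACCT
srh-170 upstream: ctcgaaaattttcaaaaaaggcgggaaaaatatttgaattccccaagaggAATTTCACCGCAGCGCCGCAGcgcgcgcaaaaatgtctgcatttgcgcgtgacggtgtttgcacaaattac

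Tagged SNU-23 peaks were scarce at srh and sri genes. A final peak was found at 5 of 281 members (1.78%), namely srh-2, srh-16, srh-170, srh-269 and sri-5, against 20.9% of all protein-coding genes counted the same way. By family these were 4 of 220 srh genes (1.82%) and 1 of 61 sri genes (1.64%). The strongest 6675 peaks of replicate 1 alone reached 6 members, against 21.3% of all coding genes, and the added member was srh-17. The strongest 6675 of replicate 2 alone reached 5 members, the same 5 as the final list, against 21% of all coding genes. When a summit had to lie within 500 bp of the 5' end, the same 5 members remained, against 16.8% of all coding genes.

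The low count held in the much longer candidate lists, which reach well below the authors' threshold. A pooled candidate was found at 10 members (3.56%), against 40.7% of all coding genes. Candidates of replicate 1 reached 13 members (4.63%), against 43.1%, and candidates of replicate 2 reached 12 members (4.27%), against 42.9%. Of these, 9 members (3.20%) had a candidate in each replicate, against 38.3% of all coding genes. A candidate in any of the 3 lists was found at 16 members (5.69%), against 48.1%. The other 265 members (94.3%), 206 srh and 59 sri, had no candidate in any list, as had 10362 of all coding genes (51.9%). Among sri genes only sri-5 and sri-18 had a candidate in any of the 3 lists.

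**Figure D1:**
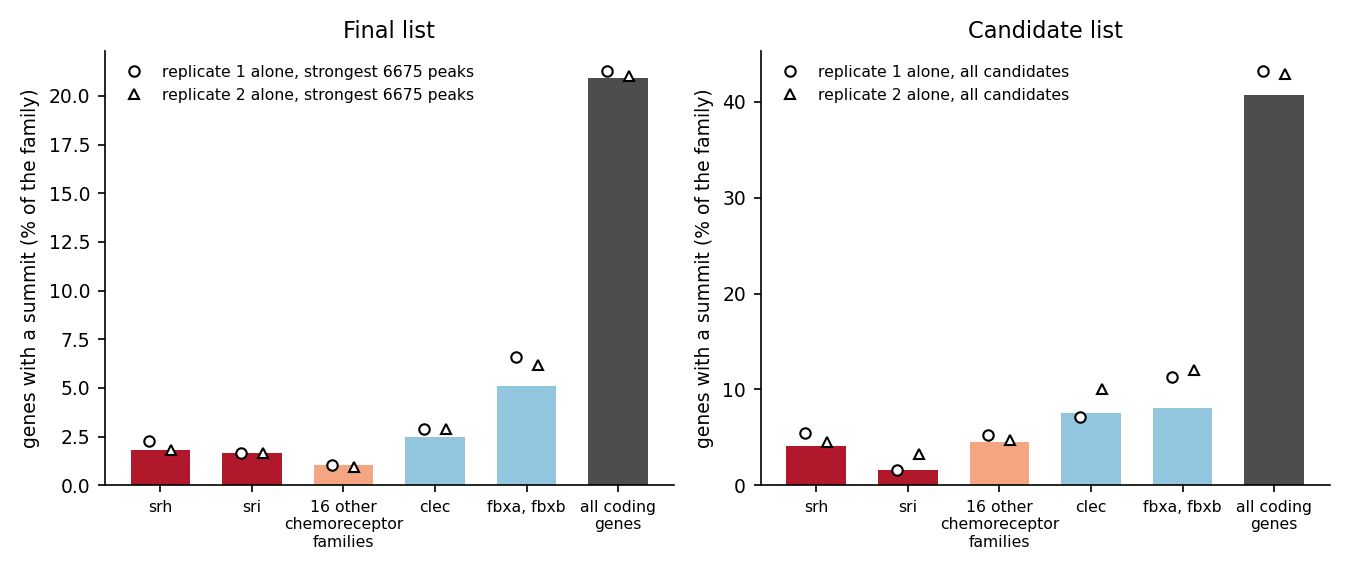
Share of genes with a final peak (left) and with a candidate (right) in srh, sri, 16 other chemoreceptor families together, clec, fbxa with fbxb, and all protein-coding genes. Bars are the final or pooled list and open symbols are each replicate alone; srh (1.82% final) and sri (1.64%) lie far below all coding genes (20.9%) in both replicates.

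Of the 5 marked members, 4 shared a final peak with another gene, and srh-170 was the exception. For comparison, 52.6% of all marked coding genes shared a peak with any annotated gene and 37.8% with another coding gene. Of 9 final summits at members, 4 were shared and 5 reached no other gene. Those 5 were 4 summits inside srh-2 and the 1 at srh-170. For 3 of the 4, the shared peak was the only final peak. No pooled candidate of a member below the threshold, 12 summits in all, was shared, but this was not counted over all coding genes.

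At sri-5 (chromosome I, 11182795 to 11186206, plus strand) the summit lay at -246 bp. Its signal was 283 (rank 398) in replicate 1 and 356 (rank 325) in replicate 2, and 614 (rank 385) in the pooled list. The summit lay 486 bp upstream of rsr-1, which encodes an SR-related protein of RNA splicing and is transcribed away from sri-5. The 5' ends of the pair are 731 bp apart, and sri-5 is the nearer. The 2 replicate summits lay within 4 bp of each other.

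At srh-16 (chromosome V, 12291861 to 12294196, plus strand) the summit lay at -65 bp. Its signal was 329 (rank 268) in replicate 1 and 284 (rank 538) in replicate 2, and 602 (rank 402) in the pooled list. It was the only one of the 8 final summits with a separate value in each replicate that was lower in replicate 2, by a ratio of 0.863. The replicate summits lay within 16 bp of each other. All 36-base words within 500 bp of the srh-16 5' end occur once in the genome.

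At srh-269 (chromosome V, 16590156 to 16592042, minus strand) the summit lay at -288 bp. Its signal was 137 (rank 1539) in replicate 1 and 160 (rank 1470) in replicate 2, and 288 (rank 1574) in the pooled list. Both other genes within reach were nearer than srh-269. The summit lay 22 bp upstream of the tRNA gene WBGene00014499, which is on the strand of srh-269. It also lay 113 bp downstream of the 5' end of the non-coding RNA gene T03E6.13 on the other strand. T03E6.13 (16592217 to 16592319) holds the whole tRNA gene (16592237 to 16592308). The summit, at 16592330, lay just past the 3' end of T03E6.13. In the printed 144 bases that hold the tRNA gene, 64.2% of 36-base words occurred once in the genome.

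At srh-170 (chromosome V, 15386746 to 15388870, minus strand) the summit lay at -313 bp and reached no other annotated gene. It was also the weakest of the members' strongest final summits, with a signal of 47.1 (rank 5208) in replicate 1, 50.4 (rank 5500) in replicate 2 and 98.5 (rank 5188) in the pooled list. The replicate summits lay within 2 bp of each other. Of the 36-base words in the printed 121 bases, 52.3% occurred once in the genome. Over the 500 bp on either side of its 5' end, that share was 91.4%.

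**Figure D2:**
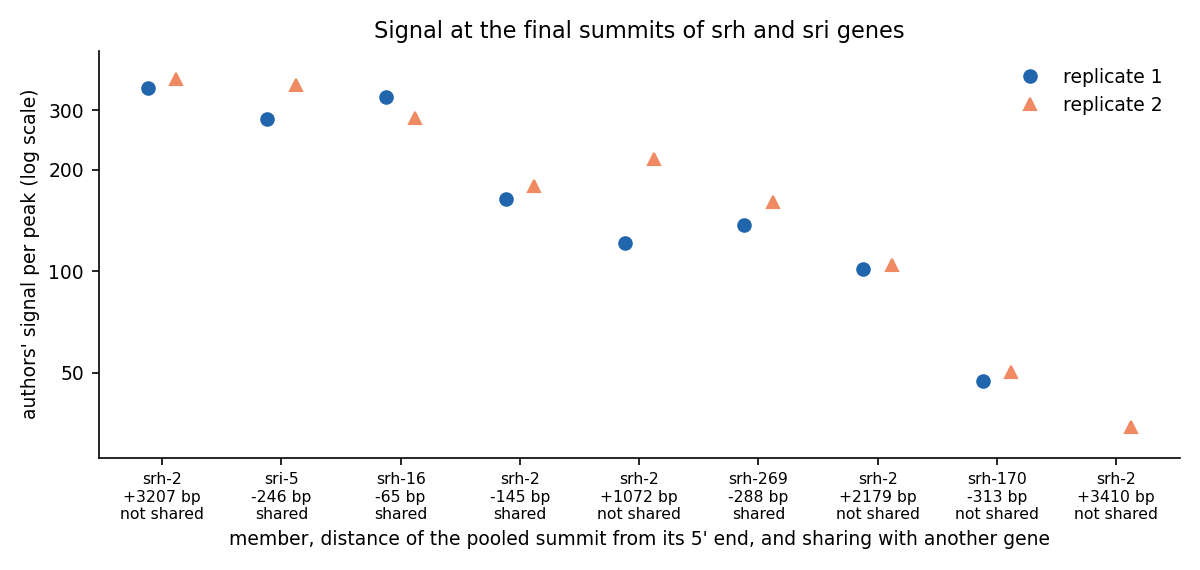
Authors' signal (log axis) in replicate 1 (circles) and replicate 2 (triangles) at the 9 final summits at members, in the order of pooled signal. The strongest, inside srh-2, was at 348 and 372, and srh-170 was at 47.1 and 50.4; the last summit had no separate summit in replicate 1.

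Of the 9 final summits, 5 belonged to srh-2 (chromosome V, 728301 to 734311, plus strand). At 6011 bp srh-2 is the third longest member, and the members' median length is 1624 bp, against 2027 bp over all coding genes. Only 50 coding genes (0.250%) had at least 5 final summits by the same rule, which is 1.20% of marked coding genes. The upstream summit at -145 bp had signals of 164 in replicate 1, 179 in replicate 2 and 336 pooled. It lay between srh-2 and icl-1, which encodes the glyoxylate cycle enzyme isocitrate lyase and malate synthase, at 152 bp from the icl-1 5' end, with 296 bp between both 5' ends. It also lay 75 bp upstream of the non-coding RNA gene C05E4.16, whose 5' end was the nearest of the 3.

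The strongest summit of any member lay inside srh-2, at +3207 bp in an untranslated exon. Its signal was 348 (rank 232) in replicate 1 and 372 (rank 294) in replicate 2, and 721 (rank 254) in the pooled list. The annotation has further transcript starts inside the gene, at +3102 and +3108 bp, so that this summit lies 105 and 99 bp downstream of them. More transcripts start at +3345, +3581 and +3737 bp. The 120 bases up to the base before the first of these internal starts, chrV:731283-731402, plus strand, are printed because they lie upstream of the strongest summit, with no part in capitals.

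srh-2 internal: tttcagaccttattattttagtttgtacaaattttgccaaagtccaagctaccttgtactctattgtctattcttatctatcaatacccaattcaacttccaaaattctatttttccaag

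The other final summits inside srh-2 were weaker. The intron summit at +1072 bp had a signal of 121 (rank 1813) in replicate 1 and 216 (rank 884) in replicate 2. The ratio was 1.79, the furthest from 1 among these summits. Replicate 1 had a further, weaker candidate next to it, at +1230 bp with 20.5, which the ratio leaves out. The intron summit at +2179 bp had 101 in replicate 1 and 104 in replicate 2, close to each other. The coding exon summit at +3410 bp shares its listed interval with the one at +3207 bp. It had a signal of 34.5 (rank 7426) in replicate 2 and no separate summit in replicate 1, and at 74.3 pooled it was close to the lowest final signal. The summits did not stop at the gene: 3 more final summits lay over icl-1, at -819, -1151 and -3056 bp from the srh-2 5' end, with pooled signals of 97.8, 72.2 and 105. Another, with 300, lay at -4094 bp, between the 3' end of icl-1 and fbxb-72, an F-box gene on the minus strand. The 5' end of fbxb-72 is at -4349 bp, so this summit lies upstream of fbxb-72 and reaches it by the 500 bp rule. Over srj-25, the next gene on the other side and a predicted chemoreceptor gene too, no list had a summit.

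**Figure D3:**
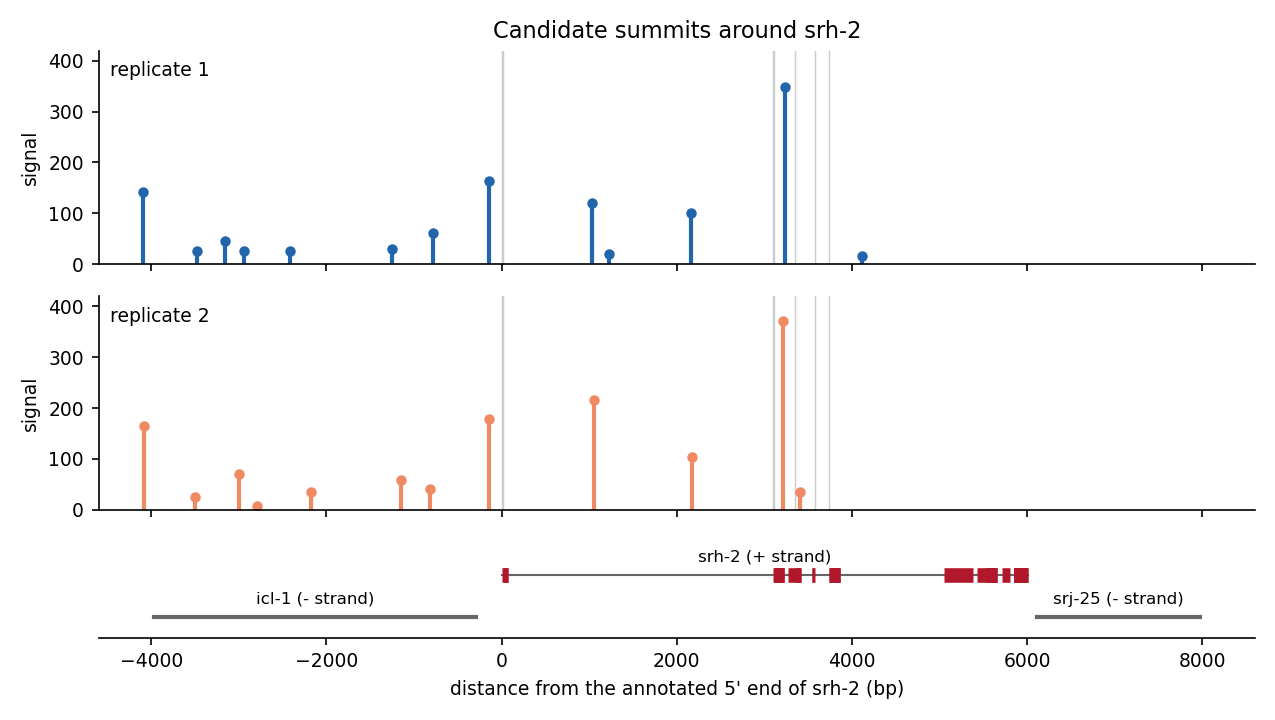
Candidate summits of replicate 1 (top) and replicate 2 (middle) by distance from the srh-2 5' end, with the height as the authors' signal, and the genes below (exons of srh-2 as red boxes, annotated srh-2 transcript starts as grey lines). In both replicates the tallest line, 348 and 372, stands just past the first internal transcript starts, and lines continue over icl-1.

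Candidates below the final threshold were few and weak. The strongest was at the marked gene srh-16, at +2303 bp in an untranslated exon, with 38.2 in replicate 1, 28.9 in replicate 2 and 65.8 pooled (rank 7082). Next came srh-30, at +1969 bp, with 16.8 in replicate 1, 22.8 in replicate 2 and 37.9 pooled (rank 10194). A candidate at srh-2, +4120 bp, had 16.2 in replicate 1, none in replicate 2 and 21.3 pooled. At srh-28, +157 bp, the values were 12.03 in replicate 1, 5.06 in replicate 2 and 17.5 pooled. At srh-212, -219 bp, there was none in replicate 1, 12.1 in replicate 2 and 16.7 pooled. The remaining members with a pooled candidate were srh-40, with 15.6 at -84 bp, and srh-75, with 15.4 at +1808 bp. Thus 5 members (srh-28, srh-30, srh-40, srh-75 and srh-212) had pooled candidates below the threshold only.

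By the 500 bp rule, 7 members (2.49%) had a candidate in 1 replicate only. These were srh-17, srh-71, srh-83 and srh-271 in replicate 1, and srh-75, srh-212 and sri-18 in replicate 2. Over all 19973 coding genes, 8618 had a candidate in replicate 1, 8565 in replicate 2 and 7646 in each. For members the counts were 13, 12 and 9, so a smaller part of the members with a candidate had it in each replicate. The share with a candidate in 1 replicate only was not counted over all coding genes. For srh-17 and srh-75 the edge of the rule made the difference, since the other replicate had a candidate just outside it. Near sri-18 replicate 1 had a candidate at -596 bp (6.19) and the pooled list 1 at -562 bp (24.9), both outside the rule. For srh-74 each replicate had a candidate, but at different places: at +1556 bp with a signal of 6.41 in replicate 1, and at -448 bp with 9.06 in replicate 2. Requiring the replicate candidates to overlap therefore left 8 members, a count that was not made over all coding genes. Of the 21 pooled summits at members, 11 had the highest -log10 q-value of that list, 4.38, so the q-value does not rank them.

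At the few marked members the signals were high within the list. The median pooled signal of the 9 final summits was 336, against 176 over the 5246 pairs of a coding gene and a final summit. Counting only the strongest final summit of each marked gene, the median was 602, against 199. Over all pooled candidates the medians were 37.9 for 21 pairs at members, against 19.7 for coding genes. With only the strongest pooled candidate of each gene, the order turned: 68.2 at 10 members, against 76.2 for coding genes. Members were also lower in replicate 1 alone (16.8 against 33.8) and in replicate 2 alone (19.6 against 38.3). These medians rest on few summits, 5 of the 9 final ones at srh-2. All 5 final summits within 500 bp of a member's 5' end lay upstream of it, against 89.7% for coding genes. Of 11 such pooled candidates 10 lay upstream, against 73.8% for coding genes.

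The limit of 500 bp kept 1 clear peak out. The final list had a summit at -504 bp from srh-17 (chromosome V, 14661305 to 14663154, plus strand), with a signal of 119 in replicate 2 and 209 pooled (rank 2392), while in replicate 1 the summit lay at -488 bp with 91.3 (rank 2619). This peak reached no other gene. The marked member with the largest distance inside the limit was srh-170, at 313 bp. Within 1000 bp, further members with a final summit were srh-76 at -850 bp (218), srh-89 at -919 bp (286) and srh-282 at -957 bp (174). The last of these lay 64 bp upstream of sma-10, a transmembrane protein of body size signalling, and the one near srh-89 lay 169 bp upstream of F25E5.1. The summit near srh-76 reached no other gene by the 500 bp rule.

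Members lay far from SNU-23 peaks in general, as did genes of other multigene families. The median distance between a member's 5' end and the nearest final summit was 21.7 kb (quartiles 11.2 and 44.8 kb), against 6.07 kb (1.43 and 16.2 kb) for all coding genes. It was 24.3 kb for srh and 16.7 kb for sri. Coding genes of chromosome V outside srh and sri had a median of 10.3 kb. The median was 19.5 kb for the 16 other chemoreceptor families, 18.7 kb for C-type lectin genes (clec) and 24.7 kb for F-box genes (fbxa and fbxb). More than 10000 bp separated 223 members (79.4%) from the nearest final summit, against 37.3% of all coding genes. On chromosome V the share was 50.8% of coding genes outside srh and sri. With replicate 1 candidates alone the medians were 14.7 kb for members and 1.82 kb for coding genes, and with replicate 2 candidates 15.2 kb and 1.84 kb.

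**Figure D4:**
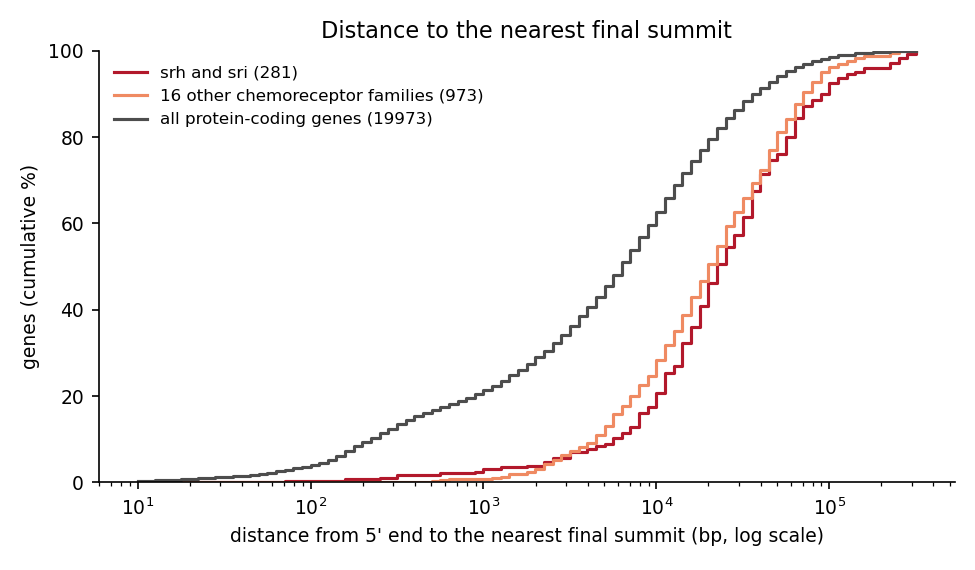
Cumulative share of genes by distance of the annotated 5' end to the nearest final summit (log axis), for srh and sri, for 16 other chemoreceptor families and for all protein-coding genes. The curve of srh and sri, median 21.7 kb, runs close to that of the other chemoreceptors, median 19.5 kb, and to the right of all coding genes, median 6.07 kb.

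Other multigene families had low shares too. A final peak was found at 1.78% and a pooled candidate at 3.56% of srh and sri genes, against 10 (1.03%) and 44 (4.52%) of 973 genes in 16 other numbered chemoreceptor families. In 9 of those 16 families no gene was marked. The marked genes of the others were sre-13, srv-16, srd-70, srd-44, srd-4, srv-7, str-176, srt-52, srbc-58 and srw-85, with pooled signals between 247 at sre-13 and 95.7 at srw-85. A final summit within 500 bp of the 5' end was found at 5 srh and sri genes (1.78%), against 3 genes of the 16 families (0.308%). Among clec genes, which encode C-type lectins, 6 of 240 were marked (2.5%), and among fbxa and fbxb F-box genes 14 of 274 (5.11%). These families were set beside srh and sri as counts, and no difference between them was tested. In the srj family, added after the values were seen, 0 of 39 genes were marked.

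Most srh genes lie on chromosome V (180 of 220), while sri genes lie on chromosome II (31 of 61) and chromosome V (21). On chromosome V 14.2% of all coding genes were marked, and it held 201 members (71.5%), chromosome II 58, chromosome I 11, chromosome IV 8, chromosome X 2 and chromosome III 1. Within 10000 bp of another member lay 196 of the 280 members that have another on their chromosome (70%), with a median gap of 2332.5 bp. On chromosome V, 4 of 201 members were marked (1.99%), against 701 of 4113 coding genes outside the chemoreceptor families (17.0%). Of the non-chemoreceptor coding genes next to a member, 22 of 267 were marked (8.24%) and 51 had a pooled candidate (19.1%). A pooled candidate was found at 34.0% of coding genes outside the chemoreceptor families on chromosome V, and at 45.8% of those off it. Off chromosome V, 1 of 80 members was marked (1.25%), against 3465 of 14560 coding genes outside the chemoreceptor families (23.8%). No test of these shares was run, and the part that position plays in the members' low share was not tested.

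Duplicated sequence can keep reads from being placed, so the share of 36-base words that occur once in the genome was counted within 500 bp of each 5' end. The read length is not given in the sources used here, and 36 was chosen as a short one. The median share was 100% for members and for all coding genes. It exceeded 90% at 243 members (86.5%), against 89.2% of all coding genes, and was under 50% at 8 members (2.85%), against 2.75%. Among the 243 members above 90%, 9 had a pooled candidate (3.70%) and 5 a final peak (2.06%), against 43.2% and 22.4% of coding genes above 90%. The 8 members under 50% had no pooled candidate. Words in the rest of the gene, where a summit also counts, were left out. The part that read placement plays in the members' low share was not tested. Median GC content of the same windows was 34.7% in members, against 35.4% in all coding genes and 36.3% in marked coding genes.

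A feature present at many members, though not at most, and not used by the rule is an E-box, a short element that basic helix-loop-helix factors bind and that is known from promoters of chemoreceptor genes. The core CACCTG was searched on both strands between 250 bp upstream and 50 bp downstream of the annotated 5' end. It was present at 121 members (43.1%), 88 srh (40%) and 33 sri (54.1%), against 16.8% of the 16 other chemoreceptor families and 8.48% of all coding genes. Among marked coding genes 6.27% had it. The other core searched, CACGTG, was present at 16 members (5.69%), against 5.82% of all coding genes.

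The cores lay close to the 5' end. The 138 cores in members had a median position of -73 bp (quartiles -103.75 and -55.25), and 82 of them (59.4%) lay between 100 and 50 bp upstream, against 50.6% in the other chemoreceptor families and 25.1% in all coding genes. They lay on the gene's strand in 73 cases and on the other strand in 65. Read on the strand with CACCTG, a T stood before the core in 69.6% and a T or C after it in 85.5%. The shares were 56.7% and 78.1% in the other chemoreceptor families, and 39.2% and 59.2% over all coding genes. At least 2 cores were present at 16 members. The core is shown in capitals for the 4 members with both a core and a pooled candidate, and for sri-6 as an example from the other family. Each stretch of 50 bases is given on the gene's strand, so CAGGTG marks a core on the other strand. The stretches are chrV:15388911-15388960 (minus) for srh-170, chrV:3597201-3597250 (minus) for srh-212, chrIII:6610751-6610800 (plus) for srh-40, chrV:11057185-11057234 (minus) for srh-75 and chrV:13185602-13185651 (plus) for sri-6. Measured at their middle, the cores lay at -65 bp in srh-170, -73 bp in srh-212, -46 bp in srh-40, -66 bp in srh-75, and -79 and -57 bp in sri-6.

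srh-170 E-box: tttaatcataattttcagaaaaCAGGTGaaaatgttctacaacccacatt
srh-212 E-box: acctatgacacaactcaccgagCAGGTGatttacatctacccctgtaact
srh-40 E-box: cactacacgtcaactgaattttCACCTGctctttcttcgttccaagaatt
srh-75 E-box: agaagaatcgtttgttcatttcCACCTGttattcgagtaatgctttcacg
sri-6 E-box: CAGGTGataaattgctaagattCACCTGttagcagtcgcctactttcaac

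SNU-23 candidates were rare at members with and without the core. Of the 121 members with CACCTG, 4 had a pooled candidate (3.31%) and 1, srh-170, a final peak. Of the 160 members without it, 6 had a pooled candidate (3.75%) and 4 a final peak. A match to 6 letters is a description of the window and not a bound site.

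**Figure D5:**
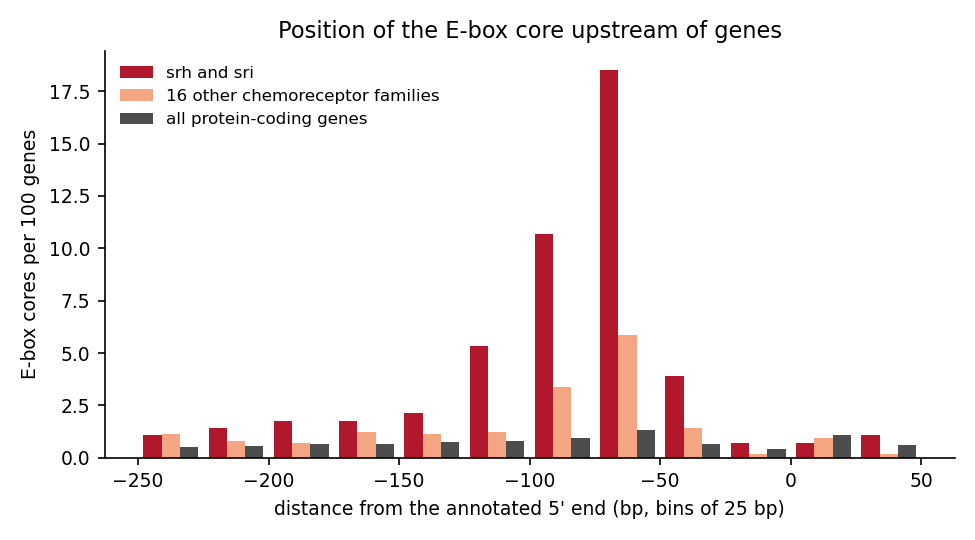
Number of CACCTG cores per 100 genes in bins of 25 bp around the annotated 5' end, for srh and sri, for 16 other chemoreceptor families and for all protein-coding genes. The srh and sri bars peak between -75 and -50 bp at 18.5 cores per 100 genes.

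In a list of 32 genes linked to chemosensation, the share with a peak was near that of all coding genes. The list held genes of signalling and receptor trafficking, transcription factors such as lin-11 and tbx-2, and the receptor gene odr-10. Of the 32, 6 were marked (18.8%), against 20.9% of all coding genes, and 12 had a pooled candidate (37.5%), against 40.7%. Replicate 1 candidates reached 16 of the 32 and replicate 2 candidates 11. The marked genes were gpa-1, a G protein alpha subunit, with a highest pooled signal of 192, osm-9, a TRPV channel subunit, with 264, egl-4, a cyclic GMP-dependent protein kinase, with 258, and tax-6, the calcineurin catalytic subunit, with 173. The LIM homeobox factor lin-11 had 88.9 and the T-box factor tbx-2 had 93.6. Among the highest summit of each, only that of tbx-2, at -120 bp, lay upstream of the gene. The others lay inside the gene, from +792 bp at gpa-1 to +9942 bp at egl-4. A count by the 5' end only was not made for these genes. Final peaks of gpa-1, osm-9 and tax-6 also reached other annotated genes, and those of egl-4, lin-11 and tbx-2 reached none. Gene length was not taken into account in these shares. The receptor gene odr-10, the cyclic nucleotide-gated channel genes tax-2 and tax-4 and the G protein alpha gene odr-3 had no candidate in any list.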

How the data were processed

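Peak lists of 2 biological replicates of 1 group were analysed. Per the deposited file descriptions, candidates with background were called on each replicate's alignment, and on both together, each with the same control, and the final list was kept at an IDR threshold. For the aligner, the peak caller and their settings, the sources used here name nothing. Per the file columns, the deposited signal was computed by the authors for each peak, on a scale that is not stated, and the deposited −log10 q-value has a ceiling. Only ce11 lists were used, with the count of final peaks on ce10 (8993). 

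Genes came from Ensembl release 115 of WBcel235, 46890 genes on 6 chromosomes, and sequence from the RefSeq genome. Chromosome ends and peak positions were checked against each other. Summits were assigned to genes within 500 bp of the 5' end or in the gene, in Python 3.11.15 with pandas 2.3.3 and numpy 2.4.6, and figures were drawn with matplotlib 3.10.9. The assignment was tested on simulated data. Final and pooled peaks were matched to replicate candidates by overlap of at least 1 bp.

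The members, the like families and the 32 chemosensory genes were chosen with earlier results of these data known. No test of chance was therefore run, and counts stand beside the share of all coding genes. Replicate error is given by each replicate alone. Named are the members with a final peak, those with the highest pooled candidates, genes sharing a final peak with a member, and marked chemosensory genes. The genes srh-17, srh-74, srh-76, srh-89, srh-282, sri-18 and the marked genes of other families were named after their values were seen. A gene of this list is not reported here.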

Additional observations from a re-analysis of the deposited data

How the results depend on the processing

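Of 36 alternatives to 6 results, 26 stayed within 1.5 times the value given (for medians, within the spread of the replicates). With a window of 250 bp, 3 members (1.07%) were marked, against 16.4% of all coding genes, and 2 of them shared a peak. With 1000 bp, 9 members (3.2%) were marked, against 24.6% of all coding genes. At that width 17 members (6.05%) had a pooled candidate, against 44.3%, and 15 (5.34%) had a candidate in both replicates, against 42.4%. Any overlap of the peak gave 7 marked members (2.49%), against 23.1% of all coding genes. Assigning each summit to the nearest coding 5' end kept 5 marked members and left 0 that share, by construction. The stronger 3337 final peaks marked 4 members (1.42%), against 13.1% of all coding genes. As many pooled candidates as the final list on ce10 holds, an alternative added after seeing the data, marked 5 members (1.78%), against 24.7%. With 1 replicate left out, 5 to 6 members were marked, 4 shared a peak, and 12 to 13 had a candidate. The median signal at member candidates was 37.9 pooled, and 16.5 to 28.6 in single replicates, whose lists have another scale. The median offset was +157 bp pooled and +21.5 to +71 bp in single replicates, and the cause was not tested. No paired analysis was possible because there was only 1 group. Depth is unknown, control reads were not analysed here, and with 5 marked members single summits decide each median.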

Other observations

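Pseudogenes of the same families, taken from the RefSeq gene table by the symbols srh and sri, were counted in the same way. Of 89, 1 had a final summit (1.12%), against 45 of 2131 pseudogenes of that table (2.11%). A pooled candidate was found at 1 of the 89, against 7.27% of all these pseudogenes. It was srh-267 on chromosome V, with a summit at -460 bp and a signal of 61.1 in replicate 1, 84.1 in replicate 2 and 147 pooled (rank 3578). The peak also reached the gene WBGene00022909. In replicate 1 a second pseudogene, srh-307, had 2 candidates, the stronger at 9.55 (rank 17258), and replicate 2 had none there.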
